A study of Mus musculus with 8 samples.

Results

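The genes described here are 7 regulators of mineral formation, chosen by name: Alpl, Phospho1, Enpp1, Ank, Slc20a1, Slc20a2 and Mgp. Each was found once among the 50462 gene identifiers of the table, and all 7 had enough counts to be tested. The samples were RNA-seq libraries of medial knee cartilage caps from wild-type male C57Bl/6J mice, with 1 mouse per library. The naive group held 4 untreated mice at day 0, aged 11 weeks, and the DMM group held 4 mice aged 17 weeks, killed 42 days after the left medial meniscus had been destabilised by cutting the ligament that ties it to the tibia. Destabilisation of the medial meniscus, or DMM, serves as a surgical model of post-traumatic osteoarthritis. Without a sham-operated group, the effects of joint destabilisation, of surgery itself and of the 6 weeks between the groups cannot be told apart.

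Mineral grows where phosphate is plentiful and inorganic pyrophosphate, which blocks crystal growth, is scarce. Enpp1 makes pyrophosphate outside the cell from ATP, and Ank, a membrane protein, supplies the substrate by releasing ATP. Alpl (tissue-nonspecific alkaline phosphatase) breaks pyrophosphate down and frees phosphate, and Phospho1 frees phosphate inside matrix vesicles, the small membrane sacs in which the earliest crystals form. Slc20a1 and Slc20a2 carry phosphate into cells, and Mgp (matrix Gla protein) is a secreted inhibitor of calcification that depends on vitamin K. In a joint the cells that use these genes include hypertrophic chondrocytes, which calcify the deep cartilage, and osteoblasts of the bone beneath it. The articular surface stays free of mineral.

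Alpl, Mgp, Ank, Enpp1 and Phospho1 were upregulated in DMM cartilage, by 1.51-fold to 2.51-fold, so that genes on both sides of pyrophosphate balance were higher together. Neither phosphate transporter passed the test. A gene was called at a DESeq2 adjusted p of 0.05 or less over all genes together with a change of 1.5-fold or more, and 5 of the 7 genes were called higher and 0 lower. Of all 17760 genes tested, 13.7% were called, 7.75% higher and 5.92% lower. The normalised counts of the groups (estimated counts divided by a library size factor) did not overlap, with every DMM library above every naive library, for 5 of the 7 genes, compared with 11.9% of genes tested. Of all calls 56.7% were higher, or 80.6% when libraries were scaled by total count, a scaling under which 5 of the 7 genes were again called higher. The median log2 fold change was 0.92 over the 7 genes and -0.02 over all genes tested.

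The start regions of the genes are shown because genes with opposite actions on pyrophosphate moved together. RefSeq promoter sequences of build GRCm38.p6 were found for 5 of the 7 genes. Each line gives the 200 bases that end just before the start site, 5′ to 3′ on the strand of the gene, with motif matches in capitals. Alpl lies on the minus strand at chr4:137796385-137796584, Phospho1 on the plus strand at chr11:95824300-95824499, Enpp1 on the minus strand at chr10:24712160-24712359, Ank on the plus strand at chr15:27466477-27466676 and Slc20a1, which was not called, on the plus strand at chr2:129198573-129198772.
Alpl: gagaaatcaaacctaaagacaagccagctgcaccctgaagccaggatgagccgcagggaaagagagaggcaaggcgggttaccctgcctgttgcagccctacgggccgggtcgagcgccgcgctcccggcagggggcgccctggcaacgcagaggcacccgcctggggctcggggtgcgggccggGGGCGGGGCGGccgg
Phospho1: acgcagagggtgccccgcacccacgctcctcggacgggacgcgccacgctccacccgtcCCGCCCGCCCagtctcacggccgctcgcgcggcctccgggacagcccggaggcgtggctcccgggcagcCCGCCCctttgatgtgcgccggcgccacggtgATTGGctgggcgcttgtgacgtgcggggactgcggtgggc
Enpp1: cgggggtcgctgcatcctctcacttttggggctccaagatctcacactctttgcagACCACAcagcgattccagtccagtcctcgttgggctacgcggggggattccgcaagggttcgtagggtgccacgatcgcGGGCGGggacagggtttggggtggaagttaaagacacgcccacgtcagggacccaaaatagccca
Ank: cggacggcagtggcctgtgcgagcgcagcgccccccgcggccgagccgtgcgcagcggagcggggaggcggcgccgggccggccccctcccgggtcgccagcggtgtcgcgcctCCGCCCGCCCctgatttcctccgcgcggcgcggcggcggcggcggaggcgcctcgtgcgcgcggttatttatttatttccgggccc
Slc20a1: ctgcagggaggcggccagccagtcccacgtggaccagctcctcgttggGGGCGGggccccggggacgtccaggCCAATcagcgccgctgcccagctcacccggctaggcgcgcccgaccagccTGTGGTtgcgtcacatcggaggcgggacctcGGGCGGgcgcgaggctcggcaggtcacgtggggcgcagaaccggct

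A set of 5 motifs was searched on both strands. The GC box, GGGCGG, was present in all 5 sequences, with overlapping copies in Alpl, Phospho1 and Ank, and in 31% of 32851 promoters of the same length. Phospho1 and Slc20a1 also held the CCAAT box, CCAAT, which 29.3% of promoters held. The core that RUNX factors bind, TGTGGT, occurred once each in Enpp1 and Slc20a1, compared with 11.2% of promoters. The TATA box, TATAAA, was in none of the 5 windows and in 9.96% of all promoters. The AP-1 motif, TGANTCA, was likewise in none of the 5 and in 5.48% of all. The 5 windows were rich in G and C, at 60.5% for Enpp1 to 79.5% for Ank, where the median promoter had 53%.

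The phosphatases come first, since they supply free phosphate. Alpl (ENSMUSG00000028766, chromosome 4, 137741733 to 137796384, GRCm38, protein coding) had 1902.1, 1918.4, 2434.8 and 2415.1 normalised counts in naive replicates 1 to 4 and 4371.3, 4445.1, 5723.0 and 7263.5 in DMM replicates 1 to 4. The lowest DMM library was above the highest naive library by a wide margin. Means were 2167.6 ± 297.3 in naive and 5450.7 ± 1358.5 in DMM cartilage (SD, n = 4 per group), a 2.51-fold increase with a 95% interval of 1.98 to 3.20 (log2 fold change 1.33, SE 0.18, DESeq2 adjusted p = 1.98e-11). This was the largest change of the 7 genes. Dropping any 1 library left Alpl called, with log2 fold changes of 1.16 to 1.42 over 8 such fits.

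Phospho1 (ENSMUSG00000050860, chromosome 11, 95824499 to 95832140) had 569.0, 741.0, 516.9 and 367.4 normalised counts in the naive libraries and 947.1, 795.5, 768.9 and 790.6 in the DMM libraries. The groups were apart only narrowly, between naive 2 and DMM 3. The increase was 1.51-fold with a 95% interval of 1.16 to 1.95 (log2 fold change 0.59, SE 0.19, DESeq2 adjusted p = 0.0124), which is at the fold threshold. Dropping each library in turn kept the call in 5 of 8 fits. The call was lost without naive 3 (log2 fold change 0.56, DESeq2 adjusted p = 0.0475), without naive 4 (0.44, DESeq2 adjusted p = 0.0224) and without DMM 1 (0.52, DESeq2 adjusted p = 0.068).

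The count of Phospho1 is less certain than those of the other genes because its exons are shared. Of its 31-base words, 87.1% also occur on the same strand in a transcript of the neighbouring gene Zfp652 and 81.8% on the opposite strand in Abi3, so a read there can be credited to any of the 3 genes. Zfp652 had 1928.8 ± 234.6 normalised counts in the naive libraries and 1924.5 ± 56.2 in the DMM libraries (SD, n = 4), with a log2 fold change at -0.00 (SE 0.11 and DESeq2 adjusted p = 0.992). Abi3 had 274.7 ± 46.2 and 364.3 ± 77.5 (SD, n = 4), with a log2 fold change at 0.41 (SE 0.19 and DESeq2 adjusted p = 0.0997). Neither neighbour was called. Their part in the change of Phospho1 was not tested. Alpl and Mgp shared 0 words with other genes, and Enpp1, Ank and Slc20a2 shared 1.65%, 1.09% and 1.79%.

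**Figure D1:**
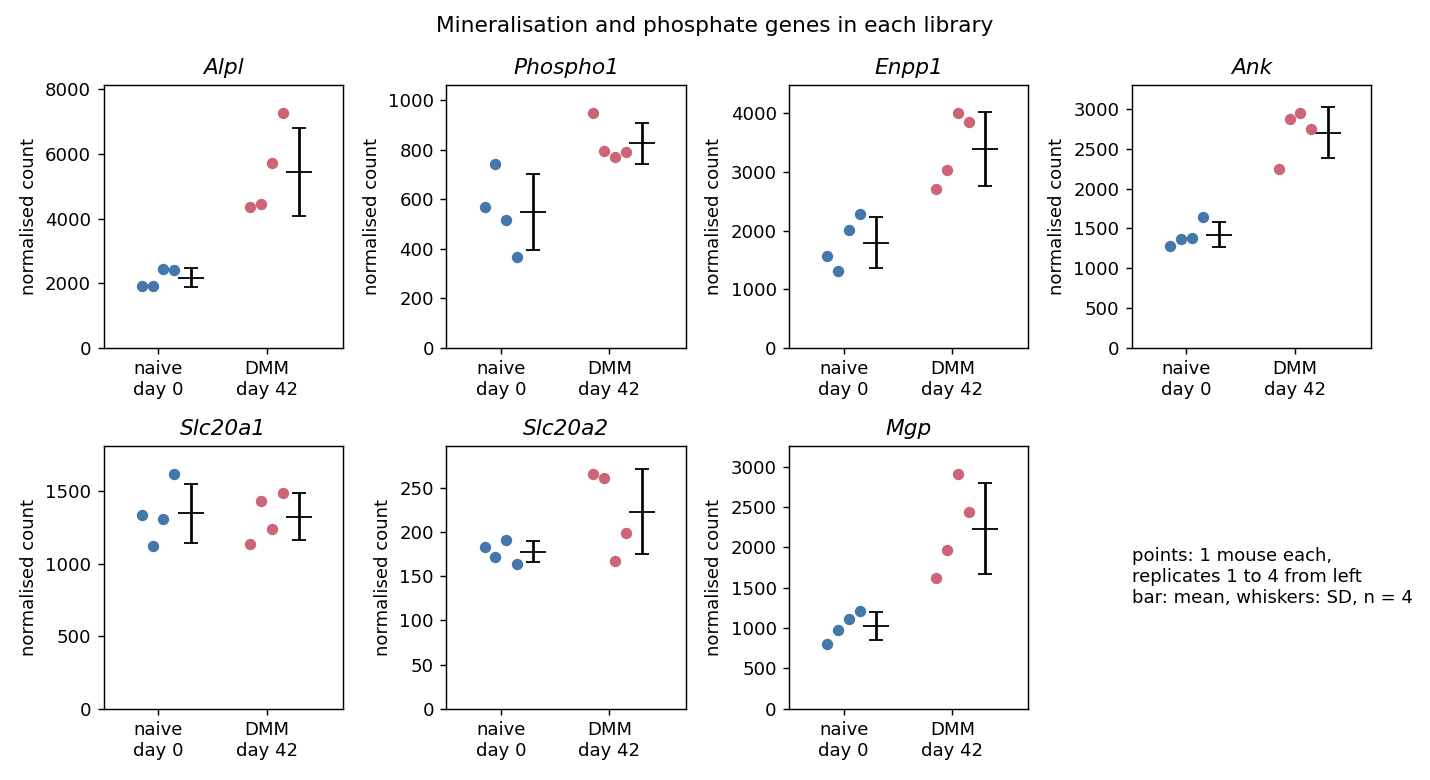
Normalised counts (y axes, from 0) of the 7 genes in 4 naive libraries at day 0 (blue) and 4 DMM libraries at day 42 (red), with the mean and SD of each group (n = 4). For Alpl, Enpp1, Ank and Mgp the DMM libraries lie clearly above the naive ones, for Phospho1 they clear them narrowly (768.9 against 741.0), and for Slc20a1 and Slc20a2 the groups overlap.

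The genes that supply pyrophosphate rose by nearly the same factor as each other. Enpp1 (ENSMUSG00000037370, chromosome 10, 24637914 to 24712159) had 1568.0, 1306.4, 2018.5 and 2281.3 normalised counts in the naive libraries and 2708.5, 3027.2, 4004.1 and 3852.9 in the DMM libraries. Replicates 3 and 4 were the high libraries in both groups, and the groups did not overlap. The increase was 1.89-fold with a 95% interval of 1.46 to 2.45 (log2 fold change 0.92, SE 0.19, DESeq2 adjusted p = 3.78e-05). Its call held in 8 of 8 fits with a library dropped (0.80 to 1.06).

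Ank (ENSMUSG00000022265, chromosome 15, 27466677 to 27594909) had 1277.8, 1368.9, 1379.6 and 1642.9 normalised counts in the naive libraries and 2241.6, 2870.2, 2946.3 and 2750.0 in the DMM libraries. The groups did not overlap, and the coefficient of variation was 11.1% in naive and 11.7% in DMM libraries. The increase was 1.91-fold with a 95% interval of 1.61 to 2.26 (log2 fold change 0.93, SE 0.13, DESeq2 adjusted p = 5.75e-11). Without single libraries its log2 fold change stayed between 0.89 and 1.01, and the call held in 8 of 8 fits.

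Mgp (ENSMUSG00000030218, chromosome 6, 136872435 to 136875823), the calcification inhibitor, had 797.6, 980.5, 1107.7 and 1207.5 normalised counts in the naive libraries and 1618.0, 1968.3, 2914.2 and 2442.2 in the DMM libraries. All DMM libraries were higher than all naive libraries. The increase was 2.19-fold with a 95% interval of 1.68 to 2.84 (log2 fold change 1.13, SE 0.19, DESeq2 adjusted p = 3.59e-07), next in size to that of Alpl. The 8 fits without a library gave 0.98 to 1.26 and called it each time.

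Neither phosphate transporter was called, and whether their changes differed from those of the other genes was not tested. Slc20a1 (PiT-1; ENSMUSG00000027397, chromosome 2, 129198764 to 129211616) had 1338.4, 1122.8, 1311.1 and 1621.4 normalised counts in the naive libraries and 1139.5, 1433.0, 1238.9 and 1489.2 in the DMM libraries. The libraries of the groups were interleaved. The fold was 0.98 with a 95% interval of 0.81 to 1.19 (log2 fold change -0.03, SE 0.14, DESeq2 adjusted p = 0.931), and an increase of 1.5-fold lies outside that interval. The sign of this small change turned with TMM or total count scaling. Opposite-strand transcripts of 9830144P21Rik and Gm4430 share 6.98% and 3.9% of its words, and 9830144P21Rik, at 30.7 to 58.7 normalised counts per library, was not called (DESeq2 adjusted p = 0.447).

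Slc20a2 (PiT-2; ENSMUSG00000037656, chromosome 8, 22476788 to 22569612) had 183.8, 171.6, 191.6 and 164.4 normalised counts in the naive libraries and 266.2, 261.2, 167.9 and 198.6 in the DMM libraries. DMM 1, 2 and 4 were above all naive libraries, DMM 4 by little, whereas DMM 3 lay among them. The fold was 1.25 with a 95% interval of 0.98 to 1.61 (log2 fold change 0.33, SE 0.18, DESeq2 adjusted p = 0.2). An increase of 1.5-fold lies within the interval, so a change of that size is not shown to be absent. The fits without a library gave log2 fold changes of 0.23 to 0.44 and called Slc20a2 in 0 of 8. Without DMM 3 the log2 fold change was 0.44, below the fold threshold, with a DESeq2 adjusted p = 0.0494.

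**Figure D2:**
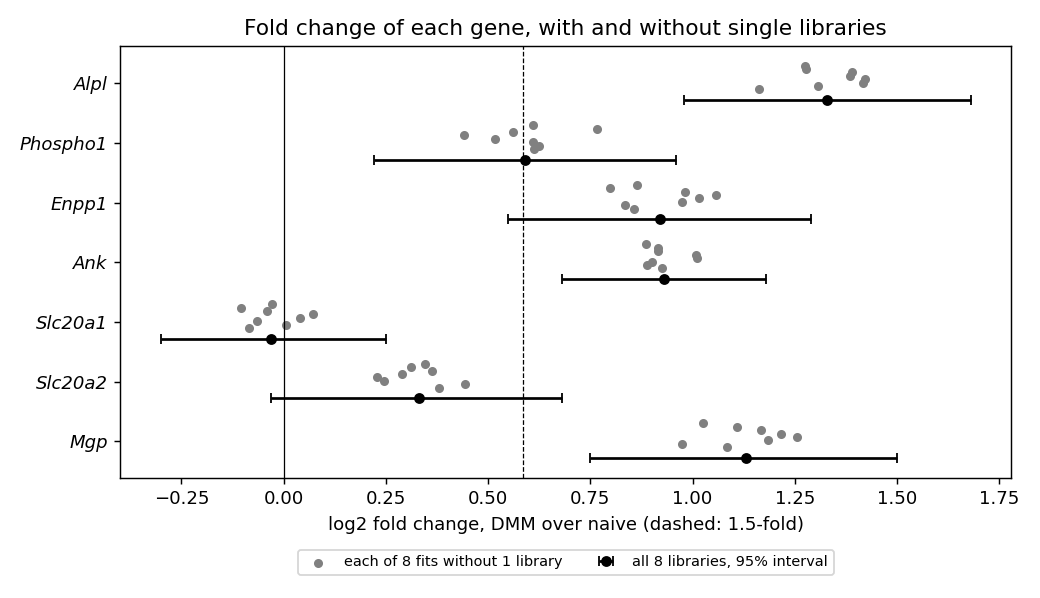
Log2 fold change of DMM over naive (x axis) for each gene, from all 8 libraries with its 95% interval (black) and from 8 fits that each left out 1 library (grey), with the 1.5-fold threshold dashed. The grey points of Alpl, Enpp1, Ank and Mgp all lie right of the threshold, those of Phospho1 straddle it (0.44 to 0.77) and those of Slc20a1 straddle 0 (-0.10 to 0.07), and the 95% interval of Enpp1 reaches left of the threshold, to 0.55.

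Whether genes shifted relative to each other was asked with ratios taken within a library, which do not depend on how libraries are scaled. An exact permutation test, two-sided and over 70 assignments, was run on 5 pairs, and its smallest p is 0.0286. A single pair at that p would have an adjusted p of 0.1429 over 5 pairs, so the design could not bring 1 pair alone past 0.05, and the values are given as a description. Alpl relative to Enpp1 had a log2 ratio of estimated counts of 0.28, 0.55, 0.27 and 0.08 in naive and 0.69, 0.55, 0.52 and 0.91 in DMM libraries. Alpl stood higher against Enpp1 on average in DMM libraries, with a difference of 0.37 (exact permutation p = 0.0857, adjusted over 5 pairs p = 0.2143), but the groups overlapped. Alpl relative to Ank differed by 0.38, from 0.61 ± 0.15 to 0.99 ± 0.32 (SD, n = 4; exact permutation p = 0.0571, adjusted p = 0.2143).

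The suppliers of pyrophosphate kept the ratio most alike between groups. Enpp1 relative to Ank was 0.31 ± 0.27 in the naive and 0.32 ± 0.19 in the DMM group (SD, n = 4), a difference of 0.01 (exact permutation p = 0.9714, adjusted p = 0.9714). Phospho1 relative to Alpl was -2.01 ± 0.58 in the naive and -2.70 ± 0.44 in the DMM group (SD, n = 4; exact permutation p = 0.1429, adjusted p = 0.2381). It varied widely within groups, from -2.71 to -1.37 among naive mice. Slc20a1 relative to Slc20a2 was 2.91 ± 0.27 and 2.58 ± 0.38 (SD, n = 4; exact permutation p = 0.2857, adjusted p = 0.3571).

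**Figure D3:**
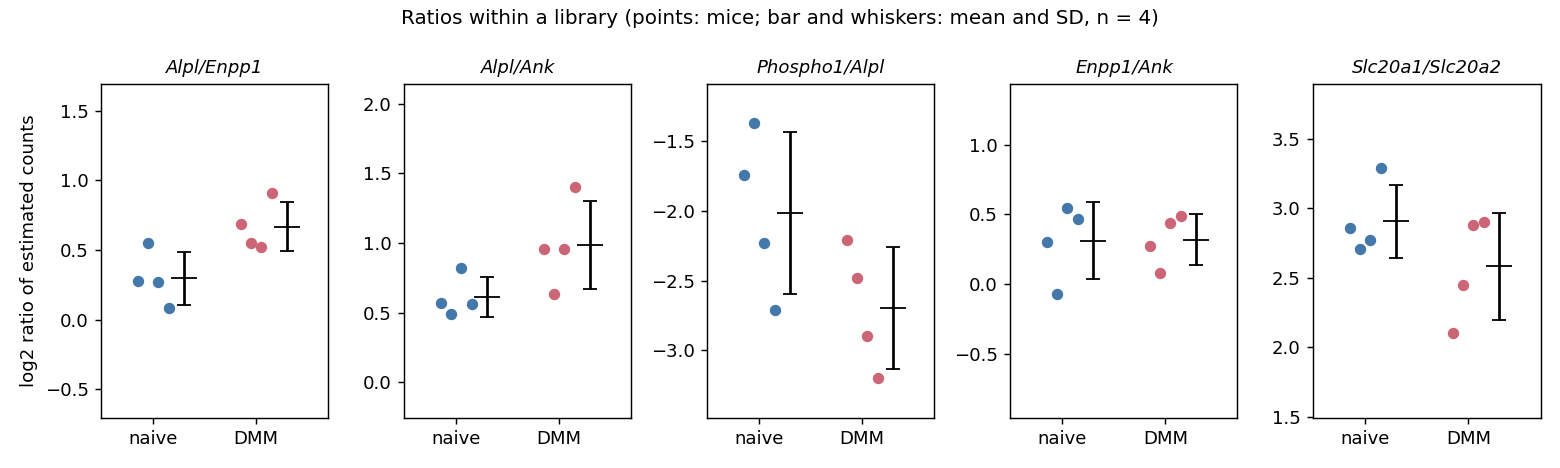
Log2 ratio of the estimated counts of 2 genes within each library (y axes, all of equal span) for 4 naive (blue) and 4 DMM (red) mice, with mean and SD (n = 4). Enpp1/Ank lies at the same height in both groups (0.31 and 0.32), Alpl/Enpp1 and Alpl/Ank are higher on average in DMM libraries, and the groups overlap in every panel.

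Levels of different genes were compared per kilobase of transcript. With the mean length of the annotated protein-coding transcripts, Alpl (1920.8 ± 263.5 normalised counts per kb) and Mgp (1658.6 ± 286.6) were highest in naive libraries and did not differ beyond their spread (SD, n = 4). They were followed by Slc20a1 (587.8 ± 89.7), Phospho1 (531.9 ± 149.5), Ank (405.2 ± 44.9) and Enpp1 (377.7 ± 92.3), and neighbours among these genes overlapped. Slc20a2, at 118.8 ± 8.1 per kb, was lower than all others in every naive library. Alpl exceeded 97.4% and Slc20a2 51.9% of 14616 protein-coding genes tested. With the longest annotated transcript as length, these shares were 96.4% and 38.5%.

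The order in DMM libraries differed in the place of Slc20a1, which came after Phospho1, Ank and Enpp1. Alpl reached 4830.0 ± 1203.8 and Mgp 3623.4 ± 915.0 normalised counts per kb (SD, n = 4), and they again overlapped. Phospho1 (800.4 ± 79.4), Ank (772.4 ± 90.7), Enpp1 (715.6 ± 132.5) and Slc20a1 (577.7 ± 71.4) came next, and neighbours among them overlapped. Slc20a2 was last at 149.3 ± 32.2, apart from all others. With the longest annotated transcript as length, Mgp came before Alpl in both groups, at 1431.2 against 859.5 per kb in naive and 3126.8 against 2161.3 in DMM libraries, so the order of these genes depends on the length used. Phospho1 then came after Ank and Enpp1 in DMM libraries.

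The other genes of the pathway were taken as 5 lists by role, holding 42 genes, of which 34 were tested. Of these, 18 were called higher, 0 lower and 16 were not called, with a median log2 fold change of 0.73. The background is 7.75% called higher and a median of -0.02 over all genes tested. Without single libraries the number called ranged from 16 to 18. Some listed genes are also used below as markers of osteoblasts (Ibsp, Bglap and Bglap2), osteocytes (Dmp1, Phex, Mepe and Fgf23) or hypertrophic chondrocytes (Panx3).

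Of 12 genes of extracellular nucleotide and pyrophosphate metabolism, 10 were tested and 5 were called higher. Nt5e, which turns AMP into adenosine and phosphate at the cell surface, rose from 557.9 ± 104.7 to 1438.5 ± 285.5 normalised counts (SD, n = 4; log2 fold change 1.37, SE 0.17, DESeq2 adjusted p = 3.63e-12). Slc29a1, which carries adenosine across the membrane, rose from 1288.9 ± 139.2 to 2088.5 ± 115.2 (0.70, SE 0.11, DESeq2 adjusted p = 1.03e-08). Both act downstream of the step that Enpp1 catalyses. Panx3, a channel of hypertrophic chondrocytes and osteoblasts that releases ATP, rose from 37.2 ± 16.6 to 157.2 ± 115.0 (2.09, SE 0.44, DESeq2 adjusted p = 6.9e-05). Enpp3 and Entpd3 were the other called genes, and the intracellular pyrophosphatases Ppa1 and Ppa2 had log2 fold changes of 0.57 and -0.08 (DESeq2 adjusted p = 0.173 and 0.722).

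Phosphate transport and its hormonal control had 1 called gene among 4 tested of 8. This was Phex, an endopeptidase that restrains Fgf23, which rose from 1169.3 ± 162.9 to 2050.1 ± 297.6 normalised counts (SD, n = 4; log2 fold change 0.81, SE 0.14, DESeq2 adjusted p = 8.11e-07). Xpr1, the phosphate exporter, was at 1300.6 ± 93.6 and 1509.8 ± 242.2 (SD, n = 4; 0.22, DESeq2 adjusted p = 0.251). With Slc20a1 and Slc20a2, the phosphate carriers that were tested were therefore all uncalled. The renal and intestinal carriers Slc34a1, Slc34a2 and Slc34a3 had means of at most 2.6 normalised counts and no adjusted p.

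Of 7 matrix vesicle and phospholipid genes, all 7 were tested and 2 were called higher. Smpd3, a sphingomyelinase needed for skeletal mineralisation, rose from 830.8 ± 120.5 to 2016.9 ± 553.4 normalised counts (SD, n = 4; log2 fold change 1.28, SE 0.19, DESeq2 adjusted p = 3.69e-09). RNA of Pla2g2a, a gene of the secreted phospholipase family, had 0, 0, 0 and 1 estimated counts in naive libraries. DMM libraries had 5, 22, 132 and 201, with DMM 3 and 4 holding most of them (DESeq2 adjusted p = 5.62e-05). Whether active enzyme is made in these mice was not measured. Annexins Anxa2, Anxa5 and Anxa6 had log2 fold changes of 0.22, 0.42 and 0.25 and were not called (DESeq2 adjusted p = 0.322, 0.053 and 0.102).

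Secreted mineral-binding proteins and their kinase had 7 called genes among 9 tested of 11. Dmp1, an acidic phosphoprotein of osteocytes, rose from 3035.3 ± 483.8 to 6541.5 ± 967.3 normalised counts (SD, n = 4; log2 fold change 1.11, SE 0.15, DESeq2 adjusted p = 2.53e-11). Sparc (osteonectin) rose by 0.92 and Fam20c, the kinase that phosphorylates this class of proteins, by 0.97 log2 units (DESeq2 adjusted p = 6.9e-08 and 1.24e-06). Spp1, Ibsp, Bglap and Bglap2 were also called higher. Ucma, a Gla-rich protein of cartilage, went the other way without passing the test (log2 fold change -0.58, DESeq2 adjusted p = 0.0589).

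Mgp needs gamma-carboxylation of glutamates to bind mineral, and 3 of the 4 genes listed under that process were called higher. Gas6 is the only carboxylated protein in this list. The Gla-rich protein Ucma, listed with the mineral-binding proteins, had a log2 fold change of -0.58 and was not called. Ggcx, the carboxylase, rose from 230.4 ± 39.1 to 435.2 ± 50.8 normalised counts (SD, n = 4; log2 fold change 0.92, SE 0.16, DESeq2 adjusted p = 7.42e-07). Vkorc1, which recycles vitamin K, rose from 145.5 ± 21.2 to 254.8 ± 24.6 (0.82, SE 0.16, DESeq2 adjusted p = 1.22e-05), and Gas6, another carboxylated protein, rose by 0.60 log2 units (DESeq2 adjusted p = 0.0013). The paralogue Vkorc1l1 was not called (-0.20, DESeq2 adjusted p = 0.346).

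**Figure D4:**
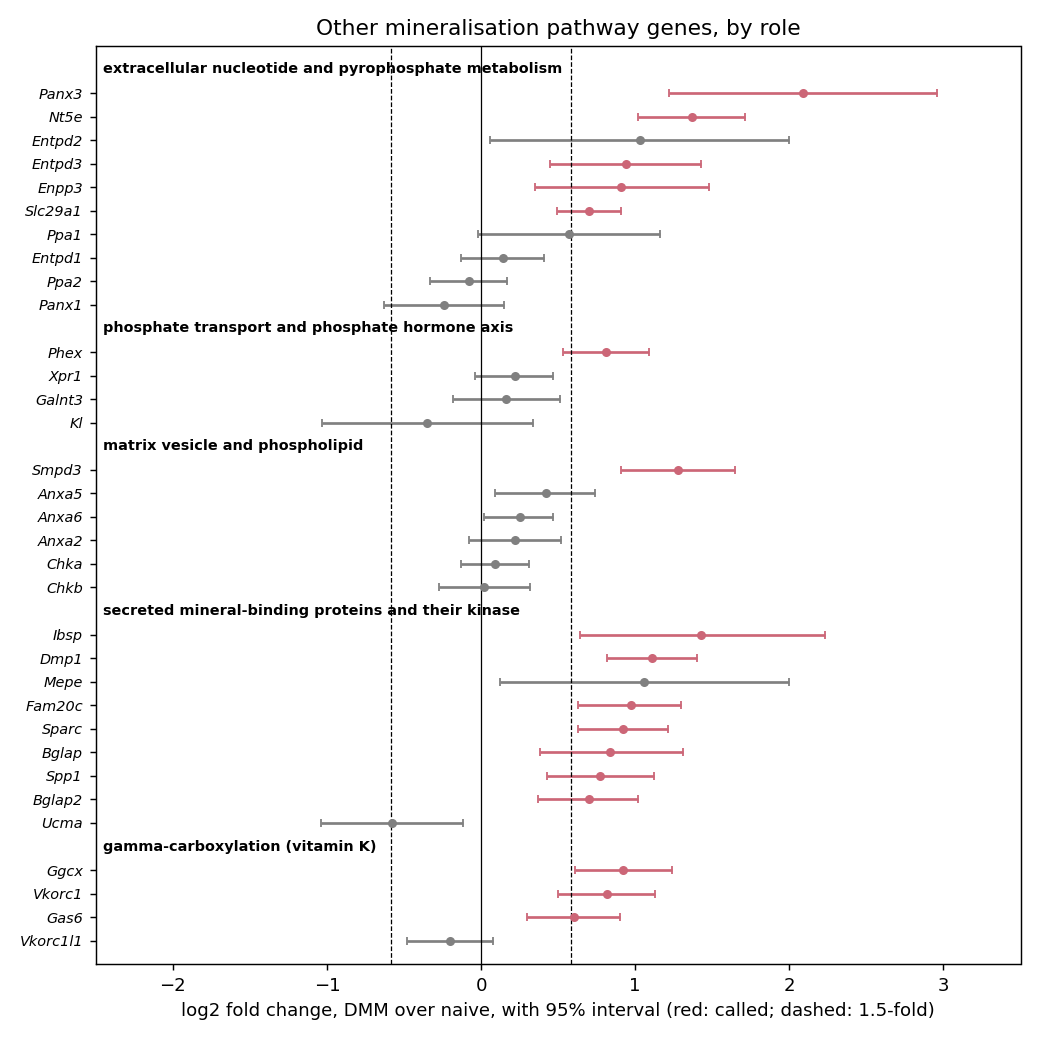
Log2 fold change of DMM over naive (x axis) with its 95% interval for 33 tested pathway genes, grouped by role, with called genes in red and 1.5-fold changes dashed. Pla2g2a, at 0 in 3 naive libraries, is left out. Called genes lie right of the dashed line in each group, from Gas6 at 0.60 to Panx3 at 2.09, and none lies left of it.

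Genes with the most similar profile were sought among 11014 genes with a symbol and a mean of at least 100 normalised counts, by Pearson correlation of log2(normalised count + 1) over the 8 libraries. The points are the same 8 libraries in 2 groups, so a shared group difference raises r, and r is given as a description. Alpl was closest to Scube1 (0.991), the mineralisation gene Dmp1 (0.988) and Plod2 (0.987), a lysyl hydroxylase of collagen. Ank was closest to Cryab (0.991), Slc29a1 (0.991) and Plekha3 (0.991), and Slc29a1 is the adenosine carrier of the pathway list. Mgp was closest to Tspan3 (0.996), Pura (0.995) and the cartilage matrix gene Comp (0.988).

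Enpp1 was closest to Fam3c (0.990), Zbtb20 (0.989) and B230216N24Rik (0.989). Phospho1 was closest to the nucleotidase Entpd3 (0.961), Srfbp1 (0.959) and Pogz (0.940). The transporters, which were not called, had Vmn1r76 (0.943), Enpp5 (0.937) and Hikeshi (0.903) for Slc20a1 and Gm20696 (0.970), Kalrn (0.970) and Fam53a (0.969) for Slc20a2. No other of the 7 genes was among the 3 closest to any of them.

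The cells behind these counts were examined with 12 marker lists, since the labels name cartilage and chondrocytes. All 8 articular chondrocyte markers were detected, and 4 were called higher. Transcripts of bone and marrow were abundant too, and their levels moved with the groups. In bulk tissue, a different number of cells of a type and a different amount of RNA per cell cannot be told apart. Totals were 12479443 to 16548002 estimated counts per library, and naive 2 had 16770 genes with 10 or more counts, where the other 7 libraries had 18245 to 19271. Without naive 2, 5 of the 7 genes were again called higher.

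Lists of mineralising cells were higher in DMM libraries, as were Alpl, Phospho1, Enpp1, Ank and Mgp. The 8 osteoblast markers summed to 123513.7 to 214847.3 normalised counts in naive and 319558.5 to 412411.1 in DMM libraries, mostly Col1a1, with 6 of 8 called higher. The 6 osteocyte markers summed to 5640.7 to 11176.3 and 14088.2 to 21447.6, with 4 of 5 tested called higher. The 5 hypertrophic chondrocyte markers summed to 6057.3 to 9715.8 and 13658.6 to 22665.1, with all 5 called higher. None of these markers was at 0 throughout. Articular chondrocyte markers summed to 69947.6 to 134762.0 and 112796.7 to 169314.4, and the groups overlapped. Much of that sum was Prg4, at 30377.6 to 96845.1 in naive and 24672.3 to 48057.4 in DMM libraries. Acan, Col2a1, Sox9 and Comp were called higher with the groups apart (log2 fold changes of 1.07 to 1.41), so a rise was not particular to the lists of mineralising cells. Matn3, Hapln1, Cnmd and Prg4 were not called.

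Several other lists differed between groups as well. Mural cell markers summed to 2288.2 to 4499.1 in naive and 5725.4 to 7825.4 in DMM libraries, with 5 of 5 called higher, and B and plasma cell markers to 3010.4 to 3948.5 and 4651.1 to 7892.6, with 2 of 7 called higher. Neutrophil lineage markers fell, with 7 of 8 called lower and sums of 119234.0 to 178984.7 against 52032.9 to 107555.6. Erythroid markers were called lower for 7 of 8, with sums of 154479.5 to 302316.2 against 79591.2 to 171004.0. For osteoclast (1 of 6 tested called higher), endothelial (2 higher and 1 lower of 6), marrow stromal (0 of 4) and synovial fibroblast (2 of 5 higher) markers, the summed levels of the groups overlapped.

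The level of each gene was then set against the osteoblast list within each library, a measure chosen after the values were seen and given without a test. The share of all genes whose groups are apart on such list scales was not determined. Col1a1 averaged 137560.5 of 154474.7 osteoblast-list counts in naive and 323535.5 of 360616.4 in DMM libraries, so the scale is close to a ratio to Col1a1. The log2 fold changes of the list ranged from 0.40 for Runx2 to 1.43 for Ibsp, with Col1a1 at 1.23. Alpl was at 8.93 to 19.2 per 1000 osteoblast-list counts in naive and 10.6 to 22.7 in DMM libraries, and Mgp at 4.56 to 9.58 and 3.92 to 7.65. Enpp1 was at 6.08 to 18.1 and 6.57 to 12.1, and Ank at 6.37 to 13 and 5.44 to 8.71. For these 4 genes the groups overlapped on this scale. Phospho1 was lower on it in every DMM library, at 2.92 to 4.61 in naive and 2.02 to 2.47 in DMM libraries. Both transporters were lower in every DMM library as well, Slc20a1 at 5.23 to 12.9 and 2.76 to 4.66 and Slc20a2 at 0.799 to 1.49 and 0.441 to 0.793. The osteoblast sum itself rose from a mean of 154474.7 to 360616.4 normalised counts. A gene that rose less, or not at all, is therefore lower on this scale.

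The same was done with the osteocyte, hypertrophic chondrocyte, mural cell and articular chondrocyte lists. Against the hypertrophic list, Alpl was at 210 to 314 per 1000 list counts in naive and 231 to 327 in DMM libraries, and Mgp at 107 to 132 and 102 to 167. Against each of the osteocyte, hypertrophic and mural lists, the groups overlapped for Alpl, Phospho1, Enpp1, Ank, Mgp and Slc20a2, and Slc20a1 was lower in all DMM than in all naive libraries. The sums of these lists were themselves higher in every DMM library, whereas the normalised count of Slc20a1 had a fold of 0.98.

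Against the articular chondrocyte list the picture differed. Alpl was at 17.9 to 27.2 per 1000 list counts in naive and 35 to 42.9 in DMM libraries, Enpp1 at 15.3 to 22.4 and 22.8 to 24.5, and Mgp at 8.96 to 11.5 and 14.3 to 17.8. These 3 genes were higher in all DMM than in all naive libraries on this scale. The scale rests heavily on Prg4, which averaged 55406.3 of 97294.2 list counts in naive and 38199.1 of 142600.0 in DMM libraries. Prg4 had a log2 fold change of -0.54 and was not called. Acan, Col2a1, Sox9 and Comp were called higher, with log2 fold changes of 1.09, 1.41, 1.07 and 1.35. Those of Alpl, Mgp and Enpp1 were 1.33, 1.13 and 0.92, so these genes did not rise beyond all 4 of the called markers. The list was not summed without Prg4, and the separation on this scale is not shown for its other members. Ank and Phospho1 overlapped between groups, at 12.2 to 18.3 and 16.2 to 23 for Ank and 2.73 to 8.7 and 4.67 to 8.4 for Phospho1. Slc20a1 was lower in all DMM than in all naive libraries, at 12 to 19.1 and 7.57 to 11.5, and Slc20a2 overlapped, at 1.22 to 2.63 and 1.03 to 2.36. The list sum was again higher on average in DMM libraries. The part of bone or hypertrophic cells in the increases was not tested.

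**Figure D5:**
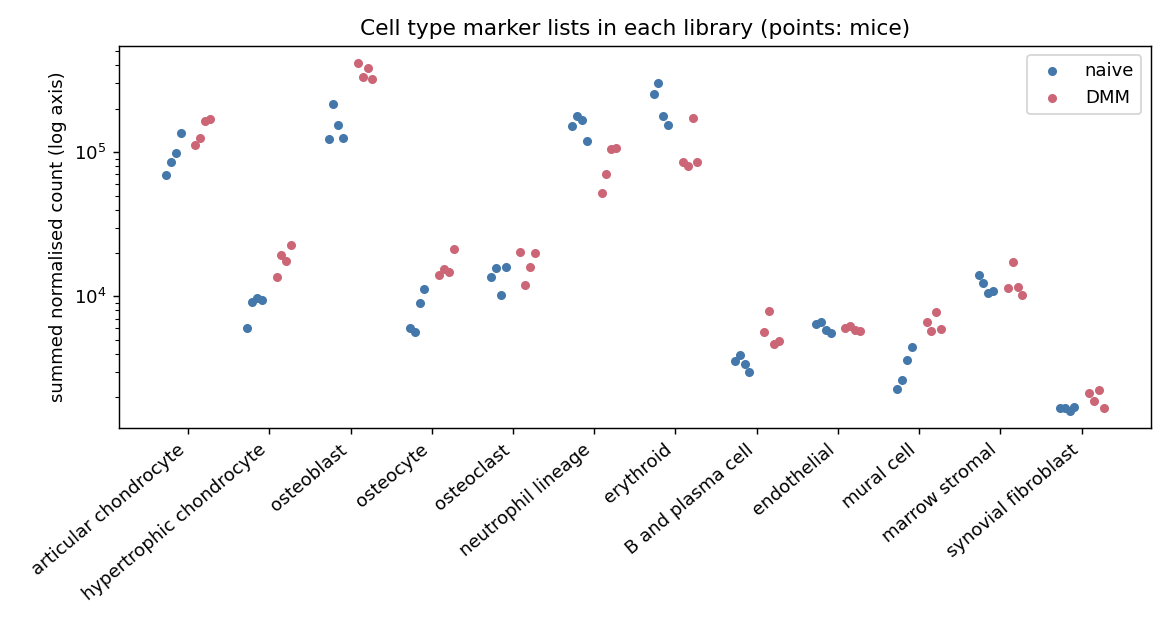
Summed normalised counts of 12 cell type marker lists (y axis, log scale) in 4 naive (blue) and 4 DMM (red) libraries. Osteoblast, osteocyte, hypertrophic chondrocyte, mural and B and plasma cell sums are higher in all DMM than in all naive libraries, and neutrophil lineage sums are lower in all of them.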

How the data were processed

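The authors trimmed reads with Trimmomatic, pseudo-aligned them with Kallisto to the mouse GRCm38 transcriptome and summed transcripts to genes with Tximport, and the deposited table holds the resulting estimated counts, which are not scaled to library size. The methods pair GRCm38 with an Ensembl release, 103, that is later than that build, and the submitters' processing notes name GRCh38, although every gene identifier is a mouse one. The labels name an NEB low input kit and the methods a SMART-Seq kit. Kallisto divides ambiguous reads, so 39.2% of values were not whole. They were rounded for testing. Whether counting used strand was not given in the sources used here.

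Symbols came from a table of gene identifiers (48855 of 50462 matched), and coordinates, lengths and shared 31-base words from GENCODE vM21 (GRCm38). Groups and replicate numbers were read from sample titles. DESeq2 (version 1.42.0, in R version 4.3.3, with its default size factors and filters, the Wald test and unshrunken fold changes), the test named in the methods, was fitted to all genes in all 8 libraries without covariates. Ratios within a library used estimated counts with 0.5 added and an exact permutation test in scipy version 1.17.1. Alternatives were edgeR version 4.0.16 (quasi-likelihood) and limma version 3.58.1 (voom), other scalings and filters, the replicate number as a block and each library left out. The tests were tested on simulated data. Totals of 12479443 to 16548002 counts per library set the counting precision, and p-values measure the spread between mice.

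The genes, pathway lists and marker lists were chosen with earlier results of these data known. The rule names all 7 genes, up to 3 called genes per pathway list with the smallest adjusted p, the 3 closest profiles of each gene, and marker lists by their sums and counts called. Further list members are named as examples after their values were seen. Protein sequences were not used here.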

Additional observations from a re-analysis of the deposited data

Results flagged for a closer look

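Of 24 groups of 4 values examined (normalised counts of the 7 genes and the 5 ratios), 1 had a library set apart from the other 3 by Dixon's criterion, and about 1.2 such groups would arise by chance. It was Phospho1 in DMM 1, at 947.1 normalised counts, with 768.9 to 795.5 in the other DMM libraries. Without DMM 1 the log2 fold change of Phospho1 was 0.52 (DESeq2 adjusted p = 0.068). Abi3, which shares words with Phospho1 on the opposite strand, was also highest in DMM 1, at 459.4 normalised counts, with 285.2 to 392.4 in the other DMM libraries.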

How the results depend on the processing

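Under edgeR, limma-voom, TMM factors, total count scaling, both other filters, the replicate block and no fold threshold, the same number of the 7 genes, 5, was called higher and 0 lower. Across the fits that left out a library 4 to 5 were called, with Phospho1 at log2 fold changes of 0.4404 to 0.7671. Slc20a1, near 0, turned positive with TMM factors (0.0010) and total count scaling (0.1200) and ranged from -0.1031 to 0.0726 without single libraries. Under total count scaling, genes averaging 10 or more normalised counts had a median log2 fold change of 0.14, against -0.01 in the reported fit. This scaling called 489 genes lower in place of 1052, with 80.6% of calls higher in place of 56.7%. Without a fold threshold 4010 genes were called in place of 2429, 1989 of them lower. Pathway genes called lower ranged from 0 to 1 without single libraries, and pathway genes called from 16 to 18. The ratio of Enpp1 to Ank changed sign without single libraries (-0.1196 to 0.0882). Over all genes averaging 10 or more normalised counts, same-numbered naive and DMM libraries did not deviate together (correlations of 0.0107, 0.0803, -0.1813 and 0.0983). With the replicate block 2081 genes were called. Alpl, Enpp1 and Mgp, unlike the other members, were lower in replicates 1 and 2 than in 3 and 4 in both groups. Their DESeq2 adjusted p with the block was 4.3e-22, 3.07e-10 and 2.57e-14, in place of 1.98e-11, 3.78e-05 and 3.59e-07. For each of these the cause was not tested. Ratios without single libraries have no test, since 3 against 4 libraries cannot give a p below 0.0571. Slc20a2, with 164.4 to 266.2 normalised counts per library, had the lowest counts of the 7 genes.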
